A study of Mus musculus with 6 samples.

Results

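Immediate early genes were compared between livers of fasted mice lacking CREBH (CREBH-KO) and livers of fasted wild-type (WT) mice. The group holds the 10 genes Fos, Jun, Junb, Jund, Egr1, Atf3, Ier2, Ier3, Klf6 and Dusp1. They were taken by name from a list, after the Ensembl identifiers of the count files had been matched to GENCODE M21 symbols. All 10 were found among the 55536 genes counted, and all 10 passed the filter on low counts that left 15589 genes for testing. CREBH, encoded by Creb3l3, is a transcription factor of hepatocytes that is held in the endoplasmic reticulum membrane until it is cut free. Per the labels, every mouse of both genotypes was fasted overnight for 14 h before total RNA was taken from the liver, and 3 libraries were sequenced per genotype. The sources used here do not state how the knockout was made, in which cells the gene is missing, or the strain, sex and age of the mice. For CREBH-KO 2 and CREBH-KO 3 the labels add that the first-read file had been lost, and how their counts were then made is not stated. The samples of a genotype are called independent without a statement that each came from its own mouse, so p-values measure the spread between these samples, which may be partly technical.

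Immediate early genes are switched on by signals to a cell without any new protein having to be made first. Growth factors, cytokines, stress and cyclic AMP act on them through MAP kinases, serum response factor and CREB, and their mRNAs are short-lived, so their levels follow recent events in the tissue. Fos and Jun proteins pair to form AP-1, EGR1 and KLF6 are zinc finger transcription factors, and DUSP1 is a phosphatase that switches MAP kinases off again. In liver these genes are known for their response to partial hepatectomy, feeding state and hormones.

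The sequences just upstream of Jun, Klf6, Dusp1 and Fos are shown because the first 3 were the genes that rose in CREBH-KO and Fos is the gene for which the class is best known. Each line gives the 250 bases before the RefSeq transcription start (GRCm38), 5′ to 3′ on the strand of the gene. Capitals mark the motifs found: the cyclic AMP response element (CRE) TGACGTCA, its shorter core TGACG, the AP-1 site TGACATCA known from Jun, and the TATA box TATAAA.
Jun, chr4:95052223-95052472, minus strand: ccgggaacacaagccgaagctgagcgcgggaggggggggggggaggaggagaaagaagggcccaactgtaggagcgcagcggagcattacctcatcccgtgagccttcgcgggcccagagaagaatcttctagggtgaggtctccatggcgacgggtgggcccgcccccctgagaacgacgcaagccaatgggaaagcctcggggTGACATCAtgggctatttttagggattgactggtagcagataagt
Klf6, chr13:5861239-5861488, plus strand: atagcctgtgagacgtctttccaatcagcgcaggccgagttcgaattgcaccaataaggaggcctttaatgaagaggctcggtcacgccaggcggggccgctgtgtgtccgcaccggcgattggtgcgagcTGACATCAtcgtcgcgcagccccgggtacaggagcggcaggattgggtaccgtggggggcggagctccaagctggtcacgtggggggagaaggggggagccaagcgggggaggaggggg
Dusp1, chr17:26508473-26508722, minus strand: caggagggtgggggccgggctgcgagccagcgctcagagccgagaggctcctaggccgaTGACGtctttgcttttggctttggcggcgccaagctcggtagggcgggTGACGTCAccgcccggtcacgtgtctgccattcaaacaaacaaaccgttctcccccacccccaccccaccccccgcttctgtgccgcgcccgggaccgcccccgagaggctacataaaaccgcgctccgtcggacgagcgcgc
Fos, chr12:85473640-85473889, plus strand: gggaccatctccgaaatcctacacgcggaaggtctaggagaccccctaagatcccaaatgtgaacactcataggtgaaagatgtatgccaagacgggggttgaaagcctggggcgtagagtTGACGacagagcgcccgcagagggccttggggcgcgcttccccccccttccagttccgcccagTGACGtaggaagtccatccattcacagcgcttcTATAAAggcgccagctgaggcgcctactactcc

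Both strands were searched, and a CRE also holds the core TGACG on each strand. Jun held the site TGACATCA from 45 to 38 bases before its start, and Klf6 held the same 8 letters from 119 to 112 bases before its start. This site was present in 2.93% of the 32851 windows of the same length at RefSeq starts of all genes. Dusp1 held a full CRE from 143 to 136 bases before its start, a motif present in 1.55% of windows. Fos held the core TGACG from 129 to 125 and again from 66 to 62 bases before its start, and a TATA box from 33 to 28, motifs present in 17.8% and 12.4% of windows. Of the 10 genes, 8 matched a window, and Egr1 and Ier2 did not. Among the genes that did not rise, Junb held the core TGACG from 106 to 102 bases before its start. Atf3 held it on the other strand from 7 to 3 bases before its start. Ier3 and Jund held none of the motifs searched. None of the 8 windows held the AP-1 motif TGANTCA (6.75% of all windows), the EGR motif GCGNGGGCG (4.70%) or a CArG box (1.47%), to which serum response factor binds. The RefSeq starts differ from the GENCODE gene ends for some genes. The Jund window (chr8:70697489-70697738) ends well before the GENCODE gene, which begins at 70698949. The Dusp1 and Atf3 windows lie inside their GENCODE genes. Absence of a motif thus holds for these windows only. The serum response element of Fos is known to lie farther upstream than these windows reach.

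In GENCODE M21 (GRCm38), Jun (ENSMUSG00000052684) lies at chr4:95049034-95052222 (minus strand, 1 exon). Klf6 (ENSMUSG00000000078) lies at chr13:5861482-5870394 (plus strand, 5 exons), Dusp1 (ENSMUSG00000024190) at chr17:26505590-26562128 (minus strand, 6 exons) and Fos (ENSMUSG00000021250) at chr12:85473890-85477273 (plus strand, 4 exons), where exons of all transcripts are merged. The other 6 genes lie on chromosomes 8, 8, 18, 1, 8 and 17 (Junb, Jund, Egr1, Atf3, Ier2 and Ier3, in that order).

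Between 28106243 and 39288819 reads were counted in genes per library. The targeted gene Creb3l3 had 57.4, 45.0 and 46.4 CPM (counts scaled to a common effective library size) in CREBH-KO 1, 2 and 3, against 467, 496 and 495 CPM in WT 1, 2 and 3. Its log2 fold change was -3.29 ± 0.11 (SE, edgeR adjusted p = 3.00e-06). Which exons are missing is not stated, so the remaining reads were not assigned to exons. The hepatocyte markers Alb, Ttr, Tat, Hnf4a, Apob, Cps1, Serpina1c and Tdo2 summed to between 72570 and 77355 CPM in CREBH-KO and between 62029 and 75872 CPM in WT. Most of these sums was Alb, with means of 55615.4 CPM in CREBH-KO and 49554.5 CPM in WT.

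Of the 10 immediate early genes, 3 rose in CREBH-KO, none fell and 7 did not pass (edgeR's quasi-likelihood test, adjusted p under 0.05 by the Benjamini-Hochberg method over all genes tested). The genes that rose were Jun, Dusp1 and Klf6, with log2 fold changes of 1.39, 1.33 and 0.81. Over all 15589 genes, 10.4% were called, 3.91% as higher and 6.46% as lower. The median log2 fold change was 0.75 over the 10 genes, 9 of which were above 0, and 0.02 over all genes tested, 53.1% of which were above 0. The genotypes did not overlap for Jun, Dusp1 and Klf6, as for 30.6% of all genes tested. In whole liver a change in the share of a cell type and a change in RNA per cell cannot be told apart. Of the 10 stellate cell markers, 3 also rose. The 10 together summed to between 235 and 261 CPM in CREBH-KO and between 165 and 196 CPM in WT. Of these, Dcn alone had means of 125 CPM in CREBH-KO and 84.8 CPM in WT, so it weighs heavily in the sums. The part of these markers in the results was not tested.

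**Figure D1:**
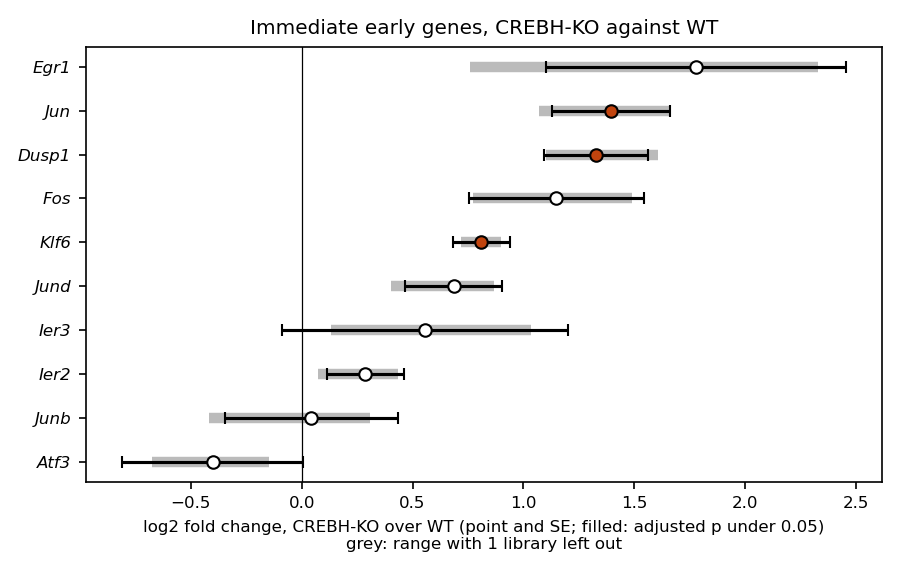
Log2 fold change of each immediate early gene, CREBH-KO over WT, as points with SE bars (n = 3 libraries per genotype), with the range over fits that leave out 1 library in grey. Filled points (Jun, Dusp1, Klf6) had an edgeR adjusted p under 0.05, Egr1 had the largest log2 fold change (1.78) with the widest bar, and Atf3 was the only gene below 0 (-0.40).

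Jun, whose protein is the main partner of FOS in AP-1, had 26.2, 50.5 and 31.1 CPM in CREBH-KO 1, 2 and 3, against 18.3, 11.5 and 11.0 CPM in WT 1, 2 and 3. Every CREBH-KO library was above every WT library, and the lowest CREBH-KO library was 1.43 times the highest WT library. The means were 35.9 ± 12.8 CPM in CREBH-KO and 13.6 ± 4.10 CPM in WT (SD, n = 3 each), a log2 fold change of 1.39 ± 0.27 (SE, edgeR adjusted p = 0.0122). The call of Jun was lost without WT 2 (log2 fold change 1.28, edgeR adjusted p = 0.0612) and, narrowly, in edgeR's robust fit (adjusted p = 0.0510). With CREBH-KO 1 alone against WT its log2 fold change was 0.92. Jun lies on the minus strand of chromosome 4, and 7.28% of its exonic bases lie within the antisense gene Junos, which had 22 counts over CREBH-KO and 45 over WT against 3403 and 1414 for Jun.

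Fos had 5.39, 1.69 and 4.01 CPM in CREBH-KO 1, 2 and 3, against 1.27, 1.75 and 2.02 CPM in WT 1, 2 and 3. CREBH-KO 1 and CREBH-KO 3 were above all WT libraries, while CREBH-KO 2 lay within the WT range. A log2 fold change of 1.15 ± 0.40 did not pass (SE, edgeR adjusted p = 0.104). Without CREBH-KO 2 it was 1.49 and passed (edgeR adjusted p = 0.0246), and all libraries together gave a pass without the low-count filter (edgeR adjusted p = 0.00516) and in DESeq2 (adjusted p = 0.0301). Without the filter the log2 fold change of Fos was 1.13 ± 0.29 (SE), so that pass came with a smaller SE and not a larger difference. Without CREBH-KO 1 it was 0.77 (edgeR adjusted p = 0.281), and it did not pass without any 1 of the other 4 libraries (edgeR adjusted p of 0.136 to 0.231). These values rest on 184, 50 and 131 reads in the CREBH-KO libraries and 49, 56 and 62 reads in the WT libraries.

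Junb and Jund encode JUN relatives that also pair with FOS. Junb had 81.6, 31.4 and 45.1 CPM in CREBH-KO 1, 2 and 3, against 25.4, 64.0 and 64.4 CPM in WT 1, 2 and 3. The highest library was a CREBH-KO library and the lowest a WT library, and the genotypes overlapped, with CREBH-KO 1 above every WT library. Junb had a log2 fold change of 0.04 ± 0.39 (SE, edgeR adjusted p = 0.957), and its sign turned without WT 1 (-0.29, edgeR adjusted p = 0.603) or without CREBH-KO 1 (-0.42, edgeR adjusted p = 0.532). Jund had 42.3, 75.4 and 48.9 CPM in CREBH-KO 1, 2 and 3, against 43.1, 30.2 and 30.1 CPM in WT 1, 2 and 3. Only CREBH-KO 1 and WT 1 overlapped, and they differed by less than 1 CPM. The log2 fold change of Jund was 0.68 ± 0.22 and did not pass (SE, edgeR adjusted p = 0.0811). It passed without WT 1 (0.87, edgeR adjusted p = 0.0365), without CREBH-KO 1 (0.85, edgeR adjusted p = 0.0384), with no filter (0.66 with a smaller SE of 0.13, edgeR adjusted p = 8.91e-05) and in DESeq2 (adjusted p = 0.0111). Without CREBH-KO 2 it was 0.40 (edgeR adjusted p = 0.222), and it did not pass without WT 2, WT 3 or CREBH-KO 3 (0.59 to 0.77, edgeR adjusted p of 0.121 to 0.247). Of the exonic bases of Jund, 52.6% lie within the antisense gene Gm11175, which had 0 counts in all 6 libraries. The strand setting of the counting is not stated, so reads of either gene in that stretch cannot be told apart, and if the counting ignored strand the level of Jund is too low.

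Atf3, a stress-induced relative of these factors that mostly represses its targets, was low. It had 21, 24 and 12 reads in CREBH-KO 1, 2 and 3 (0.615, 0.811 and 0.367 CPM), against 37, 27 and 17 reads in WT 1, 2 and 3 (0.957, 0.845 and 0.553 CPM). It was the only one of the 10 genes with a lower mean in CREBH-KO, and the genotypes overlapped. Atf3 had a log2 fold change of -0.40 ± 0.41 (SE, edgeR adjusted p = 0.585), which ran from -0.68 without CREBH-KO 2 to -0.15 without CREBH-KO 3.

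Egr1 showed the widest range of the 10 genes. It had 86.1, 12.0 and 30.4 CPM in CREBH-KO 1, 2 and 3, against 4.58, 20.6 and 12.6 CPM in WT 1, 2 and 3. CREBH-KO 1 was 7.20 times CREBH-KO 2, and WT 2 was 4.49 times WT 1, while CREBH-KO 2 lay below WT 2 and WT 3. Its log2 fold change was 1.78 ± 0.68, the largest of the 10, and did not pass (SE, edgeR adjusted p = 0.136). It was 0.76 without CREBH-KO 1 (edgeR adjusted p = 0.448) and passed with no filter on low counts alone (edgeR adjusted p = 1.36e-06). In that fit the log2 fold change of Egr1 was 1.75 ± 0.28 (SE), so the pass came with a smaller SE and not a larger difference.

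Klf6, a zinc finger factor known to be induced in liver injury, had 16.5, 19.5 and 16.2 CPM in CREBH-KO 1, 2 and 3, against 9.62, 9.01 and 11.2 CPM in WT 1, 2 and 3. The genotypes were clearly apart, and the libraries of a genotype lay within 1.24 times of each other. The means were 17.4 ± 1.85 CPM in CREBH-KO and 9.94 ± 1.12 CPM in WT (SD, n = 3 each). The log2 fold change was 0.81 ± 0.13 (SE, edgeR adjusted p = 0.00549), or 1.75-fold. Klf6 passed with any 1 library left out (edgeR adjusted p of 0.00709 to 0.0300).

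Dusp1 encodes MKP-1, which removes phosphate from p38 and JNK and so ends the signals that induce early genes. It had 65.3, 42.3 and 50.4 CPM in CREBH-KO 1, 2 and 3, against 14.6, 28.6 and 20.0 CPM in WT 1, 2 and 3. The lowest CREBH-KO library was 1.48 times the highest WT library. The means were 52.7 ± 11.7 CPM in CREBH-KO and 21.1 ± 7.09 CPM in WT (SD, n = 3 each). The log2 fold change was 1.33 ± 0.23 (SE, edgeR adjusted p = 0.00875), or 2.51-fold. Of the 10 genes, Dusp1 alone passed in all 15 alternative fits, including CREBH-KO 1 alone against WT (highest adjusted p over the fits 0.0448).

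Ier2 encodes a small nuclear protein induced by growth factors. It had 48.3, 31.5 and 33.9 CPM in CREBH-KO 1, 2 and 3, against 27.5, 28.6 and 37.3 CPM in WT 1, 2 and 3. CREBH-KO 1 stood above the other 5 libraries, which overlapped, and the log2 fold change was 0.29 ± 0.17 (SE, edgeR adjusted p = 0.345). Without CREBH-KO 1 it was 0.07 (edgeR adjusted p = 0.809), and it ranged from 0.19 to 0.43 without any 1 of the other libraries. Ier3, known for its effect on cell survival, had 25, 26 and 4 reads in CREBH-KO 1, 2 and 3, against 11, 10 and 18 reads in WT 1, 2 and 3. The lowest and the highest levels of Ier3 were both in CREBH-KO, and the log2 fold change was 0.55 ± 0.65 (SE, edgeR adjusted p = 0.642). It ran from 0.13 without CREBH-KO 2 (edgeR adjusted p = 0.944) to 1.03 without CREBH-KO 3 (edgeR adjusted p = 0.288).

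**Figure D2:**
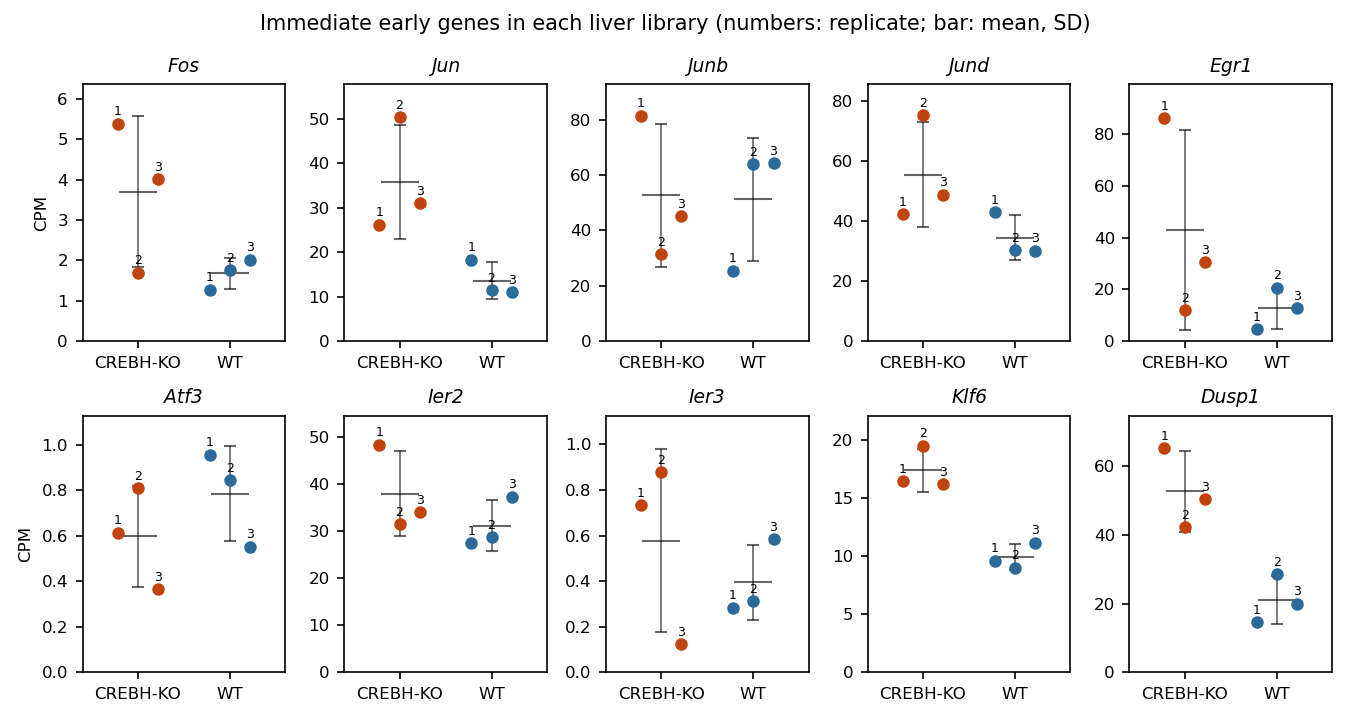
Level of each immediate early gene (CPM, linear axis from 0) in the 3 CREBH-KO and 3 WT libraries, numbered by replicate, with the mean and SD of each genotype as bars. Jun, Klf6 and Dusp1 have every CREBH-KO point above every WT point, while Fos, Egr1, Junb and Ier2 have CREBH-KO 2 within the WT range.

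Levels of different genes were set side by side per kilobase of annotated exon. In CREBH-KO the order was Jund, Ier2, Junb, Dusp1, Jun, Egr1, Klf6, Fos, Ier3 and Atf3, from 33.3 ± 10.5 CPM per kilobase for Jund to 0.278 ± 0.103 for Atf3 (SD, n = 3). The value of Jund is per full exon length and may be too low, given the antisense gene named above. In WT it was Junb, Jund, Ier2, Dusp1, Jun, Egr1, Klf6, Fos, Atf3 and Ier3, from 22.3 ± 9.72 CPM per kilobase for Junb to 0.349 ± 0.147 for Ier3 (SD, n = 3). Ranks 4 to 8 were the same genes in the same order in both genotypes. Neighbours in the order overlapped between their libraries in most places. The exceptions in CREBH-KO were Klf6 above Fos, and in WT Ier2 above Dusp1, Klf6 above Fos and Fos above Atf3. Fos, at 1.57 ± 0.794 CPM per kilobase in CREBH-KO and 0.714 ± 0.161 in WT, was thus far below its partner genes Jun (11.3 ± 4.03 in CREBH-KO and 4.27 ± 1.29 in WT), Junb (22.9 ± 11.3 in CREBH-KO and 22.3 ± 9.72 in WT) and Jund.

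The genes followed different libraries within a genotype. Fos, Junb, Egr1, Ier2 and Dusp1 each had their highest level in CREBH-KO 1, their lowest CREBH-KO level in CREBH-KO 2 and their lowest WT level in WT 1. Jun and Jund showed the opposite arrangement, with the highest level in CREBH-KO 2, the lowest CREBH-KO level in CREBH-KO 1 and the highest WT level in WT 1. CREBH-KO 1 exceeded CREBH-KO 2 by 3.19-fold for Fos, 2.60-fold for Junb, 7.20-fold for Egr1, 1.53-fold for Ier2 and 1.54-fold for Dusp1, whereas CREBH-KO 2 exceeded CREBH-KO 1 by 1.93-fold for Jun and 1.78-fold for Jund. Of all 15589 genes, 3.16% had the first arrangement and 5.01% the second. Among 38 other immediate early genes tested, the first was seen in 1 (Zfp36l1, 2.63%) and the second in 2 (Gadd45b and Gem, 5.26%). Both shares were near those over all genes. These arrangements were described after the values were seen, and genes that respond to the same signal are not independent of each other. Klf6 and Ier3 were also highest in CREBH-KO 2, and Atf3 was highest in WT 1.

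**Figure D3:**
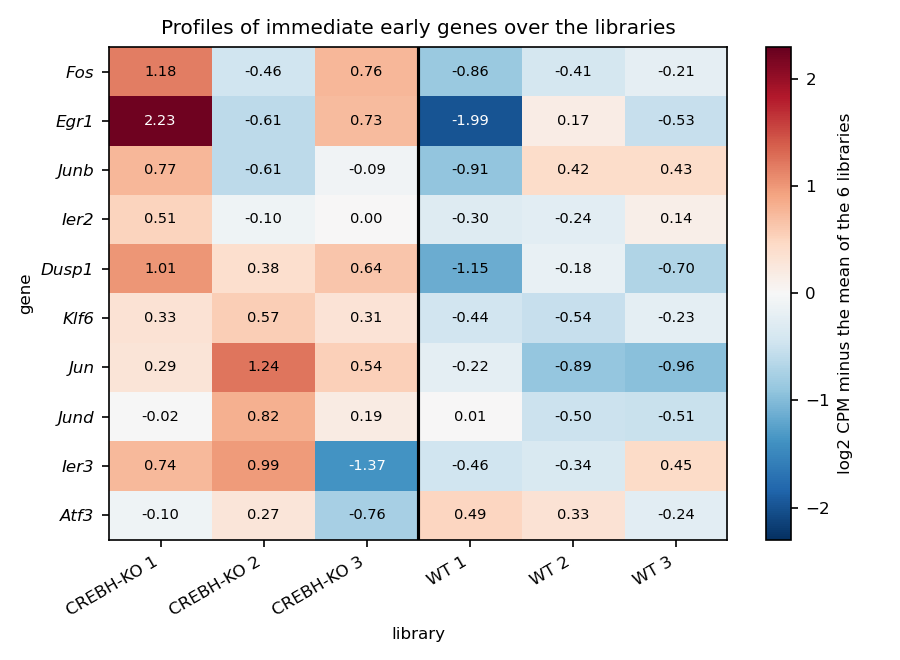
Log2 CPM of each immediate early gene in each library, minus the mean of that gene over the 6 libraries (red above, blue below). Egr1 runs from -1.99 in WT 1 to 2.23 in CREBH-KO 1, and Jun and Jund peak in CREBH-KO 2 (1.24 and 0.82), where Fos, Egr1, Junb and Ier2 lie below their mean.

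The spread between replicates differed widely among the 10 genes. The standard deviation of log2 CPM within a genotype was 1.27 for Egr1, 0.73 for Junb and 0.65 for Fos, but 0.15 for Klf6. The median over the 12565 tested genes with a mean of at least 1 CPM was 0.16. Of the 8 immediate early genes above that level, 7 exceeded the median, and Egr1, Junb, Fos and Jun exceeded 90% of those genes. Klf6 lay at percentile 46.5 and Egr1 at percentile 99.8. A difference as large as that of Egr1 thus did not pass where the smaller one of Klf6 did.

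**Figure D4:**
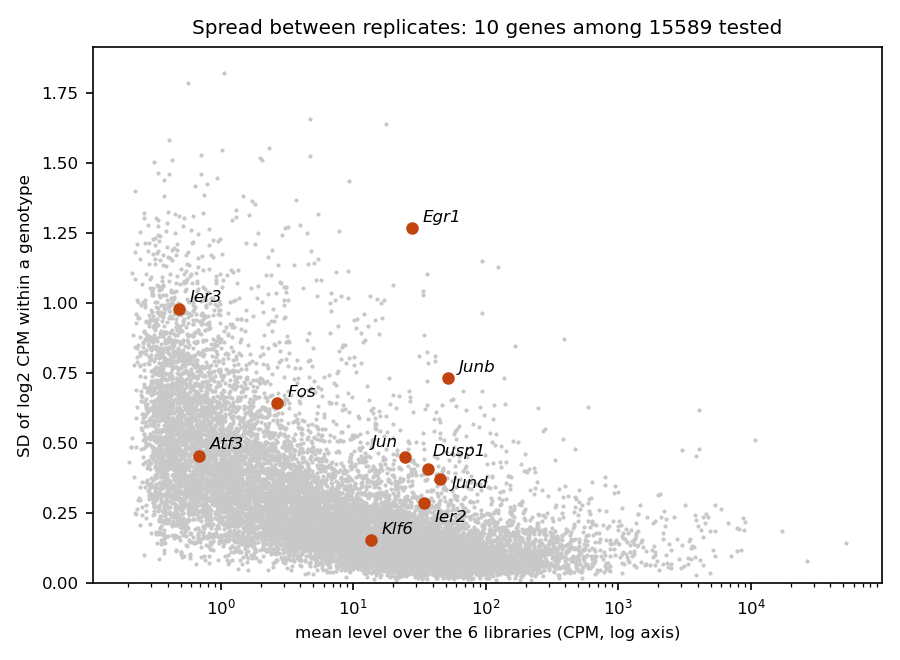
Standard deviation of log2 CPM within a genotype against the mean level over the 6 libraries (CPM, log axis) for all 15589 tested genes in grey and the 10 immediate early genes in orange. Egr1 (1.27) and Junb (0.73) lie far above the cloud at their level, while Klf6 (0.15) lies within it.

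A further list of 42 immediate early genes held 38 that were tested, of which 6 rose, 3 fell and 29 did not pass. That is 23.7% called, against 10.4% of all genes tested, with a median log2 fold change of 0.17. Like the 10 genes and the other lists, this list was chosen with earlier results of these data known. Its share is therefore not independent of the data. The largest rise was that of Gadd45b, a stress-induced gene that acts on p38 and JNK signalling, with 16.5, 31.5 and 23.7 CPM in CREBH-KO 1, 2 and 3, against 6.88, 3.47 and 3.48 CPM in WT 1, 2 and 3. All CREBH-KO libraries were above all WT libraries (log2 fold change 2.36 ± 0.31 SE, edgeR adjusted p = 0.00228). Gadd45b shared with Jun and Jund the peak in CREBH-KO 2, the lowest CREBH-KO level in CREBH-KO 1 and the highest WT level in WT 1. Only Gem of the further list also had this arrangement. The growth regulator Myc had 12.9, 15.1 and 8.91 CPM in CREBH-KO 1, 2 and 3, against 3.72, 5.57 and 5.92 CPM in WT 1, 2 and 3 (log2 fold change 1.28 ± 0.23 SE, edgeR adjusted p = 0.0103). The genotypes did not overlap for Myc. Btg1, an antiproliferative gene, rose by 0.86 ± 0.16, and the hormone-induced kinase gene Sgk1 by 0.82 ± 0.16 on the log2 scale (SE, edgeR adjusted p = 0.0123 and 0.0128). The GTPase gene Rhob (0.67 ± 0.14) and Zfp36l1 (0.45 ± 0.12), whose product binds AU-rich mRNA, also rose (SE, edgeR adjusted p = 0.0184 and 0.0400).

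Phlda1, Trib1 and Mafk fell. Phlda1 had 19.8, 14.4 and 21.8 CPM in CREBH-KO 1, 2 and 3, against 32.7, 30.7 and 55.2 CPM in WT 1, 2 and 3. The genotypes did not overlap (log2 fold change -1.08 ± 0.23 SE, edgeR adjusted p = 0.0205). Trib1, a pseudokinase gene known for its part in lipid metabolism, fell by 0.45 ± 0.12 and Mafk, a small MAF factor, by 0.47 ± 0.13 on the log2 scale (SE, edgeR adjusted p = 0.0388 and 0.0480). Gadd45b, Myc and Btg1 passed with any 1 library left out. Calls were lost for Sgk1 without WT 2 (edgeR adjusted p = 0.0613), for Phlda1 without CREBH-KO 2 (edgeR adjusted p = 0.0773), for Rhob without WT 2, CREBH-KO 2 or CREBH-KO 3 (edgeR adjusted p up to 0.0711), for Zfp36l1 without any 1 library except CREBH-KO 2 (up to 0.127), for Trib1 without any 1 except CREBH-KO 1 (up to 0.141) and for Mafk without WT 2, WT 3, CREBH-KO 2 or CREBH-KO 3 (up to 0.159). Of the exonic bases, 55.9% in Zfp36l1 and 33.0% in Phlda1 lie within antisense genes.

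Several genes best known as partners of the 10 in rapid responses did not pass. Zfp36, whose product degrades short-lived mRNAs, had 177, 129 and 209 CPM in CREBH-KO 1, 2 and 3, against 53.5, 171 and 101 CPM in WT 1, 2 and 3 (log2 fold change 0.67 ± 0.35 SE, edgeR adjusted p = 0.270). Nr4a1, a nuclear receptor gene of the same class, had a log2 fold change of 0.76 ± 0.41 (SE, edgeR adjusted p = 0.283), Socs3 of -0.03 ± 0.28 (adjusted p = 0.963) and Btg2 of 0.18 ± 0.35 (adjusted p = 0.799). The genotypes overlapped for all 4 of these genes. Fosb, Egr2, Egr3 and Nr4a3 were too low to be tested, with 15, 7, 6 and 3 counts over CREBH-KO and 16, 2, 1 and 5 over WT. These 8 genes illustrate the class and were chosen after the values were seen, from those that did not pass or were not tested. The absence of calls among them follows from that choice. The genotypes did not overlap for 16 of the 38 tested genes of the list (30.6% of all genes tested). Those of the 16 that did not pass were Ier5, Ccn2, Srf, Nfkbia, Ppp1r15a, Gem and Sik1, each higher in CREBH-KO. Sik1 was nearest to passing (log2 fold change 0.85 ± 0.23 SE, edgeR adjusted p = 0.0516).

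**Figure D5:**
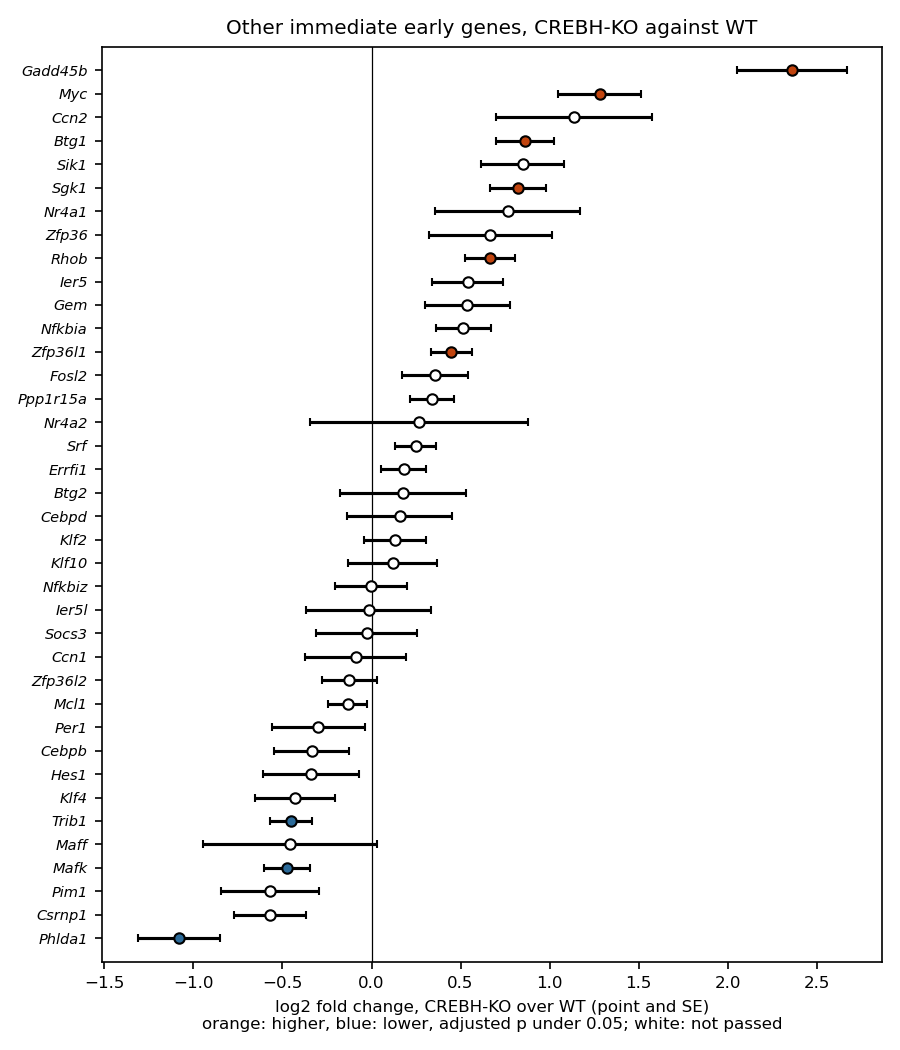
Log2 fold change, CREBH-KO over WT, with SE bars, of the 38 tested genes of the further list (n = 3 libraries per genotype). Orange points (Gadd45b, Myc, Btg1, Sgk1, Rhob, Zfp36l1) rose, blue points (Phlda1, Mafk, Trib1) fell, and white points did not pass.

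Of 15 relatives of Egr1 and Klf6, 1 rose and 2 fell (20.0%, against 10.4% of all genes tested), with a median log2 fold change of -0.35. Klf7 rose by 0.79 ± 0.19, while the glucocorticoid-responsive Klf9 fell by 0.50 ± 0.12 and Klf13 by 1.02 ± 0.26 on the log2 scale (SE, edgeR adjusted p = 0.0307, 0.0312 and 0.0369). Of 8 other MAP kinase phosphatases, 2 rose and none fell (25.0%, against 10.4% of all genes tested), with a median of 0.49. Only 1 phosphatase call remained in limma-voom and 1 in edgeR's robust fit. With so few genes per list these shares are coarse. Dusp8 had 2.22, 8.05 and 3.37 CPM in CREBH-KO 1, 2 and 3, against 1.45, 0.375 and 0.293 CPM in WT 1, 2 and 3 (log2 fold change 2.63 ± 0.64 SE, edgeR adjusted p = 0.0326). All CREBH-KO libraries were above all WT libraries. Dusp2 stayed under 1 CPM in every library and rose by 2.04 ± 0.51 on the log2 scale (SE, edgeR adjusted p = 0.0354). These 5 calls were each lost with 1 library left out: Klf7 without any 1, Dusp2 without any 1 except CREBH-KO 3, Klf9 without WT 3, CREBH-KO 2 or CREBH-KO 3, Klf13 without WT 2, WT 3, CREBH-KO 1 or CREBH-KO 2, and Dusp8 without WT 2, WT 3, CREBH-KO 2 or CREBH-KO 3 (edgeR adjusted p up to 0.135).

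Lists of genes that carry signals to immediate early promoters had called shares of 0 to 12.5%, against 10.4% of all genes tested. None of 6 genes of serum response factor and its cofactors passed (edgeR's test, with 1 at an unadjusted p under 0.05 and a median of 0.18, and 0 in DESeq2 and limma-voom). Srf itself had 15.2, 18.9 and 15.8 CPM in CREBH-KO 1, 2 and 3, against 14.0, 14.6 and 13.3 CPM in WT 1, 2 and 3, which did not overlap (log2 fold change 0.25 ± 0.12 SE, edgeR adjusted p = 0.220). Of 8 CREB factors and coactivators, Creb1 rose, with 15.7, 17.5 and 19.3 CPM in CREBH-KO 1, 2 and 3, against 12.7, 11.0 and 10.9 CPM in WT 1, 2 and 3 (log2 fold change 0.60 ± 0.12 SE, edgeR adjusted p = 0.0152). The genotypes did not overlap for Creb1, whose call was lost without WT 2, CREBH-KO 2 or CREBH-KO 3 (edgeR adjusted p up to 0.0682). Of 18 genes of the ERK cascade, 1 rose and 1 fell, or 11.1%, with a median of 0.01. This list summed to 1000 to 1021 CPM in CREBH-KO and 1065 to 1121 CPM in WT. Of these sums, Egfr had means of 244 CPM in CREBH-KO and 310 CPM in WT, and it did not pass (edgeR adjusted p = 0.103). The ERK-activated kinase gene Rps6ka3 rose by 0.50 ± 0.12 and the receptor gene Met, for hepatocyte growth factor, fell by 0.67 ± 0.10 on the log2 scale (SE, edgeR adjusted p = 0.0341 and 0.00425). Of 15 genes of the JNK and p38 cascades, Map2k3, a kinase upstream of p38, fell by 0.50 ± 0.10 on the log2 scale (SE, edgeR adjusted p = 0.0126), a share of 6.67% with a median of -0.12. Of these 15 genes, 12 were below 0. In edgeR's test 6 had an unadjusted p under 0.05 (25.2% of all genes), and the genotypes did not overlap for 7 (30.6% of all genes). The list summed to 455 to 472 CPM in CREBH-KO and 530 to 578 CPM in WT. Met passed with any 1 library left out, whereas calls were lost for Map2k3 without WT 2 or CREBH-KO 3 (edgeR adjusted p up to 0.0593) and for Rps6ka3 without any 1 except WT 1 (up to 0.121).

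Immediate early genes can be induced in several cell types of the liver, so marker levels were read beside them. Of 11 Kupffer cell and macrophage markers and 9 endothelial markers none passed in edgeR's test, against 10.4% of all genes tested. In lists this short a count of 0 is near that share. An unadjusted p under 0.05 in edgeR's test was reached by 1 and 3 of them, against 25.2% of all genes. DESeq2 called 1 macrophage marker as lower and 0 endothelial markers, and limma-voom called 0 of either. The macrophage markers summed to 107 to 130 CPM in CREBH-KO and 93.4 to 205 CPM in WT, and the endothelial markers to 191 to 209 CPM in CREBH-KO and 167 to 223 CPM in WT. Neutrophil markers summed to 1.40 to 3.37 CPM in CREBH-KO and 1.29 to 1.50 CPM in WT, and lymphocyte markers to 4.71 to 5.65 CPM in CREBH-KO and 2.25 to 6.99 CPM in WT. Among the stellate cell markers Dcn (0.56 ± 0.09), Rgs5 (0.68 ± 0.11) and Acta2 (1.48 ± 0.33) rose on the log2 scale (SE, edgeR adjusted p = 0.00552, 0.00572 and 0.0248), and the call of Acta2 was lost without any 1 library except CREBH-KO 2 (up to 0.0940). Lrat, which marks resting stellate cells, and Reln had log2 fold changes of -0.08 ± 0.24 and 0.08 ± 0.13 (SE, edgeR adjusted p = 0.866 and 0.758). Des (0.43), Pdgfrb (0.59), Col1a1 (0.58), Col1a2 (0.70) and Col3a1 (0.64) were higher without passing. Of the 10 stellate cell markers 9 were above 0, with a median log2 fold change of 0.59. An unadjusted p under 0.05 in edgeR's test was reached by 6 of them, against 25.2% of all genes tested. Of 5 tested cholangiocyte markers, Sox9 rose by 0.96 ± 0.23 on the log2 scale (SE, edgeR adjusted p = 0.0312), a call lost without WT 1, WT 2, CREBH-KO 1 or CREBH-KO 2 (up to 0.113). The other 4 did not pass, and 3 of the 5 markers were below 0, which put their median at -0.09. Epcam lay farthest below 0 (log2 fold change -1.11 ± 0.39 SE, edgeR adjusted p = 0.107). Of 5 tested red blood cell markers none passed in edgeR's test (0 at an unadjusted p under 0.05, and 0 in DESeq2 and limma-voom), and their list summed to 155 to 200 CPM in CREBH-KO and 162 to 261 CPM in WT, with WT 1 the highest. Among the hepatocyte markers Tdo2 rose by 0.41 ± 0.09 and Apob fell by 0.36 ± 0.09 on the log2 scale (SE, edgeR adjusted p = 0.0227 and 0.0419). The call of Tdo2 was lost without WT 2, CREBH-KO 2 or CREBH-KO 3 (up to 0.0915) and that of Apob without any 1 library (up to 0.136).

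The genes most like the 10 were sought among 12557 others of at least 1 CPM, by the root mean square difference between centred log2 CPM profiles over the 6 libraries. Nearest to the mean profile of the 10 were Gm26789, the basement membrane gene Nid1, the secreted glycoprotein gene Fstl1, the necroptosis gene Mlkl and Tor4a, at 0.088 to 0.10 log2 units. Of these only Mlkl passed (log2 fold change 0.88 ± 0.24 SE, edgeR adjusted p = 0.0466), and it did not without any 1 library (up to 0.143). The 10 genes themselves were farther from their own mean, from 0.25 for Ier2 to 0.98 for Egr1. Nearest to Fos were the interferon-induced gene Ifit1 (0.15 log2 units), the protease gene Adamts15 (0.16) and the matrix gene Fbln1 (0.23). Ifit1 had 20.9, 8.72 and 15.5 CPM in CREBH-KO 1, 2 and 3, against 5.92, 7.01 and 9.30 CPM in WT 1, 2 and 3 (log2 fold change 1.03 ± 0.29 SE, edgeR adjusted p = 0.0563), so that CREBH-KO 2 was the lowest CREBH-KO library and lay within the WT range, as for Fos. With 6 libraries and so many genes, close profiles occur readily, and no test was made.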

How the data were processed

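RNA of 3 CREBH-KO and 3 WT liver samples was sequenced as paired-end reads on an Illumina HiSeq, per the labels. The authors deposited 1 file of raw read counts per library, and their titles name HTSeq, per the labels. The sources used here give no aligner, genome build, HTSeq version or strand setting. Each of the 55536 gene identifiers was found in GENCODE M21 (GRCm38), which supplied symbols, positions and exon lengths. The build was inferred from this match. Reads that HTSeq gave to no gene (27.4% to 31.2% of listed reads) were left out.

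The analysis used edgeR 4.0.16 under R 4.3.3: filterByExpr (minimum count 10, minimum total 15, 99.9% of counts kept), TMM factors (0.967 to 1.05) and the two-sided quasi-likelihood test without covariates, with Benjamini-Hochberg adjustment over all genes. Log2 fold changes are CREBH-KO over WT, and the SE was taken as their size over the root of the F statistic. The procedure was run on counts simulated from the levels in these data and the spread estimated by the same fit. Such a run cannot show how well the fit describes the real replicates. No pair of replicates agreed within sampling noise (smallest chi-square over its degrees of freedom 20.0). CPM values with a mean over few reads carry counting error besides the spread shown. Alternatives used DESeq2 1.42.0, limma 3.58.1, other scalings and filters, and left libraries out.

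The members and gene lists were chosen with earlier results of these data known. Named genes were the 10 members, Creb3l3, the genes of each list that passed and the nearest profiles, with illustrations marked as such. The list of AP-1 partners is not reported here. Promoter sequences are from RefSeq (GRCm38), of which 8 of the 10 genes matched.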

Additional observations from a re-analysis of the deposited data

How the results depend on the processing

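All 15 alternative fits were planned. No paired analysis was possible because the numbers 1 to 3 only name the libraries of each genotype in accession order, and the labels tie no CREBH-KO sample to a WT sample. Of the 10 genes, 3 passed with all libraries, 2 to 4 with 1 library left out, 6 with no filter on low counts, 5 in DESeq2 and 1 with CREBH-KO 1 alone against WT. Of the 38 tested other immediate early genes, 9 passed, 4 to 10 with 1 library left out (4 without WT 2, 5 without CREBH-KO 2), 15 with no filter and 1 with CREBH-KO 1 alone. Over all genes 1616 were called, 2456 with no filter, 658 to 1806 with 1 library left out (658 without WT 2, 838 without CREBH-KO 2, 778 without CREBH-KO 3) and 228 with CREBH-KO 1 alone, where that library is assumed to vary like the WT libraries. As a share of the genes tested in each fit, 10.4% were called with all libraries and 13.6% in DESeq2 (2123 genes). With no filter, where 28923 genes were tested, the share was 8.49%, so the larger count there came with a smaller share. With 1 library left out the share ran from 4.06% (without WT 2) to 11.2% (without WT 1). The log2 fold change of Junb reversed without WT 1 (-0.29) or CREBH-KO 1 (-0.42), within a range of -0.42 to 0.31 over fits without 1 library. Scaling by library size alone moved the share of higher genes among the calls to 52.8%, against 37.7%, and the median of all genes to 0.10, and kept the direction of all 10 genes. The calls of Mafk, Trib1 and Apob were lost under library size alone (edgeR adjusted p = 0.0741, 0.0725 and 0.0893) and under upper-quartile factors (0.0688, 0.0558 and 0.0607). edgeR's robust fit ended the calls of Jun (adjusted p = 0.0510), Phlda1 (0.0585), Klf13 (0.131) and Dusp8 (0.0819), and limma-voom those of Dusp2 (0.0525) and Mafk (0.0539), which the stricter filter also ended (edgeR adjusted p = 0.0512). The cause of these changes was not tested. Atf3 and Ier3, with 4 to 37 reads per library, are limited by counting error.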
